A study of Mus musculus with 22 samples.

Results

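Whole flaxseed was compared with flaxseed oil in the mammary gland of young female mice. A miRNA panel was read in 6 glands of mice fed 10% flaxseed and in 5 glands of mice fed 3.67% flaxseed oil, which make up 11 of the 22 lanes of the series, and lanes were assigned by the diet in their labels. All 566 mouse miRNA probes of the panel belong to the comparison. Of these, 253 exceeded the background of their lane in at least 5 of 22 lanes and were tested. A probe could pass this filter through the lanes of 1 diet alone, so counts over tested probes are descriptions. The mice were C57BL/6 females, 4 to 5 weeks old at the start, randomised to a diet for 3 weeks, and total RNA came from the left mammary gland number 4. The other lanes, 5 from a basal AIN-93G diet and 6 from a diet with 0.15% of the lignan secoisolariciresinol diglucoside (SDG), shared the estimate of spread. Oil 5 and basal 5, which the authors had excluded, were not analysed here. Each lane is labelled as a separate mouse, so that p-values measure the spread between mice. The question is what the whole seed, which carries lignan, fibre and protein besides oil, does beyond the oil alone. The labels do not state the composition of either diet further.

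A miRNA is a short RNA that guides Argonaute proteins to messenger RNAs and lowers their translation and stability. Pairing rests mainly on the seed, bases 2 to 8 from the 5′ end, so that miRNAs with a common seed share many predicted targets. Many miRNAs are encoded in clusters and cut from long transcripts. Examples are the miRNAs of the imprinted Dlk1-Dio3 locus, which are expressed from the maternal chromosome, and the miR-17/92 cluster and its paralogs, known for promoting proliferation. Others mark cell types of the gland: the miR-200 family luminal epithelium, miR-205 basal epithelium, miR-150 mature lymphocytes, miR-223 myeloid cells, miR-126 endothelium, and miR-1 with miR-133a striated muscle. The whole gland was measured, so that fewer cells of a type and less RNA per cell cannot be told apart.

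The sequences below belong to the miRNAs on which the comparison turns. They are mature sequences of RefSeq (mouse build GRCm38.p6), written 5′ to 3′ with the seed in capitals; 41 of 48 probes looked up had an entry. The first 6 come from the Dlk1-Dio3 locus on chromosome 12, between miR-136 at chr12:109595331-109595352, which lies within the span of Rtl1, and miR-410 at chr12:109743764-109743784. They are shown because they come from the same locus, yet carry different seeds.
miR-136-5p: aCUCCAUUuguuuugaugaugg
miR-411-5p: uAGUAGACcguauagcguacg
miR-300-3p: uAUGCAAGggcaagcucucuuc
miR-381-3p: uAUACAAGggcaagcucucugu
miR-382-5p: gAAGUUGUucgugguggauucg
miR-410-3p: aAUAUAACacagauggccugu

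The next 2 come from a miRNA cluster within the span of Clcn5 on the minus strand of chromosome X, at chrX:7237695-7237716 and chrX:7241270-7241291. They are shown because they share the seed AUGCACC, differ in 4 of 22 bases, and had fold changes of opposite sign.
miR-500-3p: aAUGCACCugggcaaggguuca
miR-501-3p: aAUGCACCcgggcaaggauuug

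The miR-17/92 cluster on chromosome 14 and its paralog within Mcm7 on chromosome 5 hold miRNAs of 3 shared seeds, shown because members of a seed can be compared. miR-17 and miR-106b share AAAGUGC, miR-19a and miR-19b differ in 1 of 23 bases, and miR-92a and miR-25 share AUUGCAC.
miR-17-5p: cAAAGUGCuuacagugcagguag
miR-106b-5p: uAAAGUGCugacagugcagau
miR-19a-3p: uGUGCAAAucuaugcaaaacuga
miR-19b-3p: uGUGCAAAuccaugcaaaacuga
miR-92a-3p: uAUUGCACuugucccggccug
miR-25-3p: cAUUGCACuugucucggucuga

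The remaining 6 are single miRNAs. The first, miR-338-3p, lies within Aatk at chr11:120014781-120014802, miR-204-5p within Trpm3 at chr19:22750610-22750631, miR-34a-5p at chr4:150068473-150068494 and miR-223-3p at chrX:96242884-96242905. The lymphocyte miRNAs miR-342-3p and miR-142-3p lie at chr12:108658680-108658702, within Evl, and at chr11:87756903-87756925.
miR-338-3p: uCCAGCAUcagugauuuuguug
miR-204-5p: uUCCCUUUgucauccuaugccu
miR-34a-5p: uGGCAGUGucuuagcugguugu
miR-223-3p: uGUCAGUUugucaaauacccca
miR-342-3p: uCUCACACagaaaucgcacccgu
miR-142-3p: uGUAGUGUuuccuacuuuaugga

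The lanes held 344100 to 702883 endogenous counts in flaxseed and 404577 to 732081 in oil. The background threshold of a lane, its 8 negative controls' mean with 2 SD added, lay at 17.5 to 66.8 counts in flaxseed lanes and 34.8 to 48.3 in oil lanes. Flaxseed 3 stood apart from the other 10 lanes. In it miR-720, a transfer RNA fragment, took 53.7% of the endogenous count, against 2.37% to 4.41% in the other flaxseed lanes and 2.47% to 4.98% in oil lanes. Its housekeeping mRNAs had a geometric mean of 134.8 counts, against 1493.3 to 4407.1 in the other flaxseed and 2812.2 to 3864.6 in oil lanes. Many results that this lane changed are therefore given with and without it, and other values are from all lanes unless stated. The epithelial markers miR-200c and miR-205 lay above background in all 6 flaxseed and all 5 oil lanes.

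In edgeR's quasi-likelihood test 0 of 253 miRNAs (0.0%) differed between the diets after Benjamini-Hochberg adjustment, with a smallest adjusted p of 0.064. At an unadjusted p under 0.05 stood 59 miRNAs (23.3%), of which 38 were higher in flaxseed (15.0%) and 21 lower (8.3%). DESeq2 called 30 probes and limma-voom called 0. Of all tested miRNAs 57.3% had a log2 fold change above 0, with a median of 0.08. Groups that did not overlap were seen for 9 miRNAs (3.56%), 6 with every flaxseed lane above every oil lane (2.37%) and 3 with every flaxseed lane below (1.19%). The 6 were miR-1, miR-133a, miR-410, miR-872, miR-1839-5p and miR-126-3p, and the 3 were miR-500, miR-106b and miR-24.

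Without flaxseed 3, 2 miRNAs passed the adjusted threshold (0.791%), miR-338-3p and miR-204, both higher in flaxseed. Both lay just under it, at an edgeR adjusted p of 0.0499, against 0.0671 and 0.178 with all lanes. Flaxseed 3 was the lowest flaxseed lane for both. At an unadjusted p under 0.05, 26 miRNAs were higher without that lane (10.3%) and 27 lower (10.7%), and 13 (5.14%) lay wholly above and 5 (1.98%) wholly below the oil lanes. The limit was met by 39 (15.4%) in the same direction with and without the lane. A fit that also left out basal 1 and SDG 5, in which miR-720 likewise took over 40% of the count, called 18 of 254 probes, 6 higher and 12 lower in flaxseed. The 6 were miR-338-3p, miR-204, miR-223, miR-329, miR-410 and miR-382. The 12 were miR-297c, miR-34a, miR-500, miR-30b, miR-92a, miR-106b, miR-324-5p, miR-30e, miR-142-3p, miR-1944, miR-150 and a viral probe. The viral probe, for mcmv-miR-M23-2 of a mouse cytomegalovirus, stood at -0.93 (edgeR adjusted p = 0.0465). With all lanes, half-widths of the unadjusted 95% intervals had a median of 0.642 (log2) and the SE one of 0.309. For a miRNA with a half-width of 0.642 a smaller difference would not reach an unadjusted p under 0.05, and a call after adjustment would need a larger one.

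**Figure D1:**
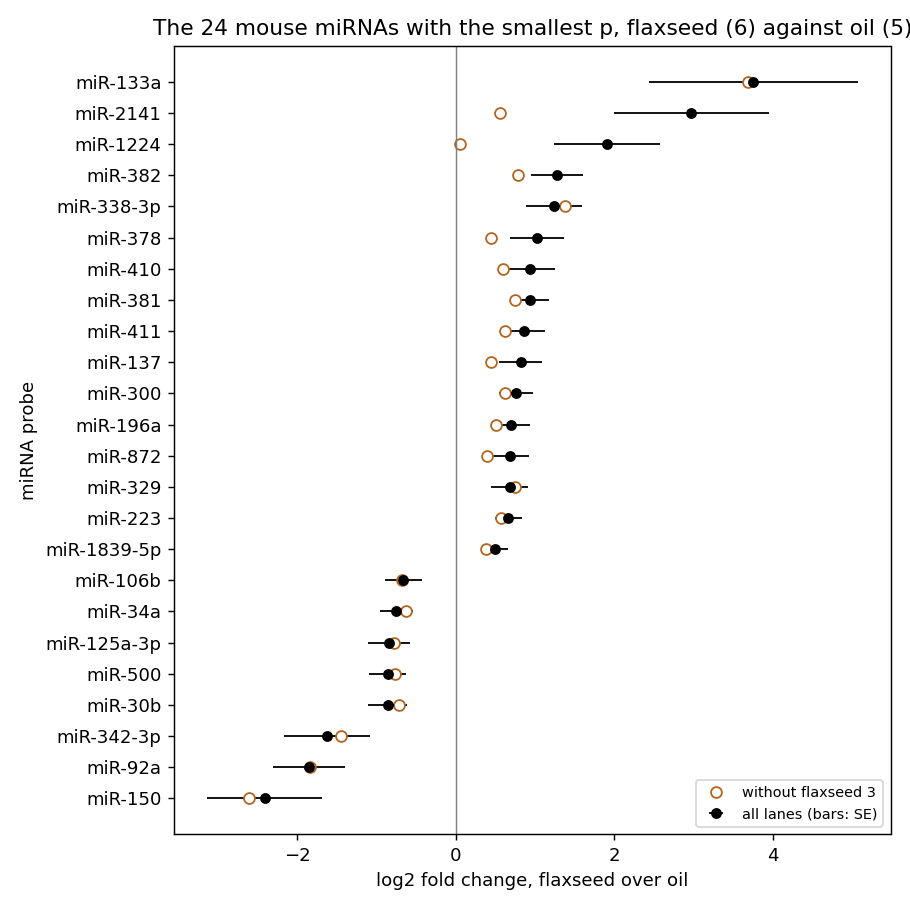
Log2 fold change (x axis, flaxseed over oil) of the 24 mouse miRNAs with the smallest unadjusted p; filled points with SE bars are from all lanes and open points from the fit without flaxseed 3. The values of miR-2141 and miR-1224 move from 2.97 to 0.56 and from 1.91 to 0.05 without that lane, while miR-92a (-1.85 and -1.84) and miR-133a (3.75 and 3.69) stay in place.

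The Dlk1-Dio3 miRNAs were the most numerous group on the higher side of flaxseed. Of 21 tested probes of the locus 19 lay above 0, with a median log2 fold change of 0.66 against 0.08 over all miRNAs, and 13 had an unadjusted p under 0.05, all higher in flaxseed, beside the 15.0% of all tested miRNAs that were higher at this limit. These lists are described by counts and medians, and none of their members passed adjustment in the main edgeR fit with all lanes. The locus is an imprinted domain whose miRNAs are maternally expressed, active in the embryo, brain and muscle. Its distal cluster, from miR-379 to miR-410, had 16 tested probes, 14 above 0 and 10 at an unadjusted p under 0.05, with a median of 0.63, or 0.55 with 8 such probes without flaxseed 3. The proximal miRNAs, antisense to Rtl1 or near Meg3, had 5 tested probes, all above 0, with a median of 0.74, or 0.53 without flaxseed 3. Of 41 panel probes of the distal and 20 of the proximal group the others did not pass the background filter. The median of the mean counts of the 21 was 117, so that these miRNAs lie closer to background than most named here.

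miR-382 stood at 7.35, 7.82 and 9.49 log2 CPM (lowest, median and highest of 6 flaxseed lanes) and at 6.71, 7.34, 6.41, 6.39 and 7.50 in oil 1, 2, 3, 4 and 6. Every flaxseed lane but flaxseed 6 lay above every oil lane, and the highest value was that of flaxseed 3. The log2 fold change was 1.28 ± 0.33 (SE; edgeR unadjusted p = 0.000966, adjusted p = 0.064), and 0.79 without flaxseed 3.

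miR-410, at the distal end of the cluster, stood at 7.28, 7.42 and 8.77 in flaxseed lanes and at 6.36, 7.27, 6.35, 6.72 and 7.02 in oil lanes. The groups did not overlap, but the lowest flaxseed lane lay barely above oil 2. Its fold change was 0.94 ± 0.31 (unadjusted p = 0.00651), and 0.59 without flaxseed 3.

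The neighbours miR-381 and miR-300 differ in 3 of 22 bases, so that signal of one may be read by the probe of the other and their values are uncertain as separate measurements. miR-381 stood at 6.30, 7.40 and 7.91 in flaxseed and at 6.39, 6.17, 6.19, 6.43 and 6.83 in oil lanes. miR-300 stood at 6.35, 7.24 and 7.61 in flaxseed and at 6.11, 6.57, 6.33, 6.39 and 6.65 in oil lanes. For both, flaxseed 6 lay within the oil range and the other 5 flaxseed lanes above it. Their fold changes were 0.93 ± 0.25 and 0.76 ± 0.21, and 0.75 and 0.62 without flaxseed 3. The counts were small: miR-381 had 33 to 95 counts in flaxseed and 44 to 61 in oil lanes. Subtraction of the negative controls left the median of the distal group at 0.61.

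Of the other members miR-329 stood at 0.68 ± 0.23, miR-154 at 0.66 ± 0.24, miR-376c at 0.68 ± 0.26, miR-379 at 0.59 ± 0.26, miR-495 at 0.56 ± 0.26 and miR-411 at 0.86 ± 0.27. miR-411 exceeded background in only 2 of 6 flaxseed and 1 of 5 oil lanes. The 2 distal members below 0 were miR-376a at -0.21 ± 0.33 and miR-544 at -0.07 ± 0.39. Of the proximal miRNAs, miR-136 stood at 0.84 ± 0.33, miR-127 at 0.83 ± 0.38 and miR-434-5p at 0.74 ± 0.31. Those 3 differed in their dependence on flaxseed 3: without it miR-136 was 0.26, miR-127 0.32 and miR-434-5p 0.80. The last exceeded background in 1 lane of each diet.

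Lane by lane, the mean deviation of the 21 probes from their 11-lane mean was 0.25, 0.26, 0.52, 0.27, 0.14 and -0.05 in flaxseed 1 to 6. In oil 1, 2, 3, 4 and 6 it was -0.35, -0.07, -0.46, -0.65 and 0.13. Oil 1, 3 and 4 were the lowest of the 11 lanes, and oil 2 and 6 lay near flaxseed 6. On the same scale the basal lanes lay between -0.13 and 0.39 and the SDG lanes between -0.15 and 0.42, so that oil 1, 3 and 4 were also below each of those lanes.

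**Figure D2:**
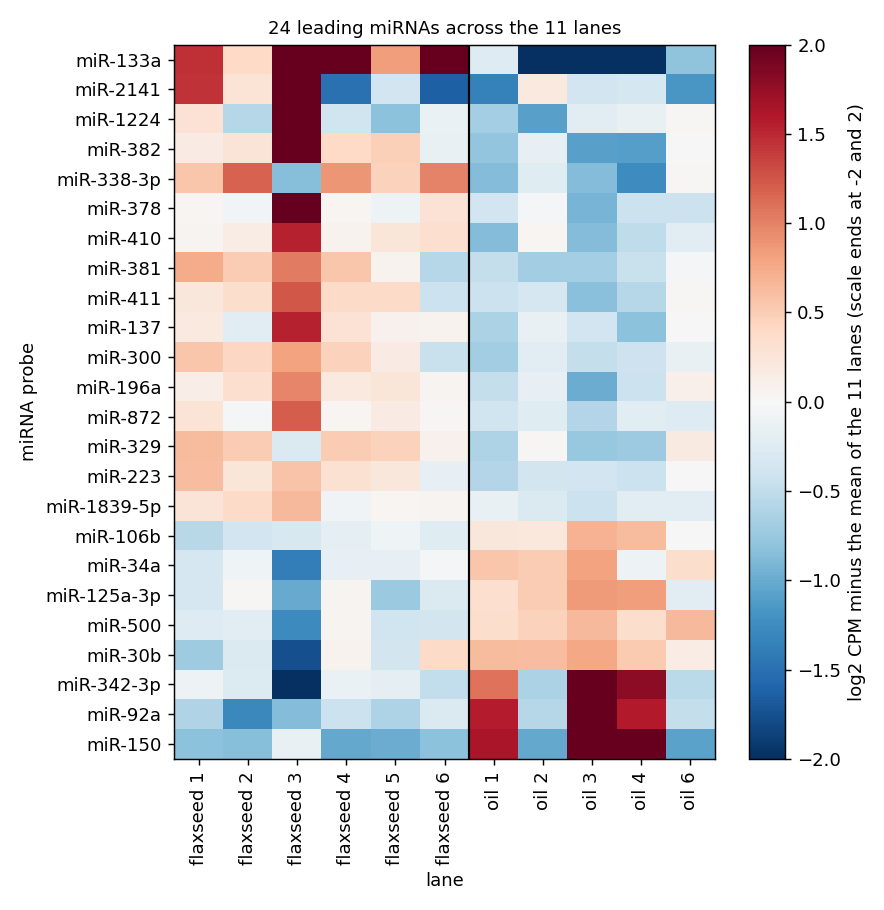
Level of the 24 leading miRNAs (y axis) in each of the 11 lanes (x axis), as log2 CPM minus the miRNA's mean over these lanes, with the colour scale ending at -2 and 2. Flaxseed 3 carries the deepest colours in many lines, and oil 1, 3 and 4 are dark red for miR-342-3p, miR-92a and miR-150, where oil 2 and 6 are pale or blue.

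The Clcn5 pair miR-500 and miR-501-3p had fold changes of opposite sign although both come from one X-linked cluster and have the same seed. miR-500 stood at 5.89, 6.86 and 7.22 log2 CPM in flaxseed and at 7.52, 7.63, 7.82, 7.52 and 7.81 in oil lanes. The groups did not overlap, and the oil lanes spanned a narrower range than the flaxseed lanes. Its log2 fold change was -0.86 ± 0.23 (unadjusted p = 0.00126, adjusted p = 0.064), and -0.77 without flaxseed 3, in which it was lowest. miR-501-3p stood at 6.22, 6.89 and 7.41 in flaxseed and at 5.76, 6.46, 6.60, 6.24 and 6.41 in oil lanes. Flaxseed 5 and 6 lay within the oil range. The fold change was 0.63 ± 0.25 (unadjusted p = 0.0188), and 0.49 without flaxseed 3 (edgeR unadjusted p = 0.0595).

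The level of miR-501-3p minus that of miR-500, both read in the same lane, was 0.50, -0.06, 1.51, -0.33, -0.26 and -0.59 in flaxseed 1 to 6 and -1.75, -1.17, -1.22, -1.28 and -1.40 in oil 1, 2, 3, 4 and 6. This difference does not depend on how a lane is scaled. All oil lanes lay below all flaxseed lanes, and also below the basal lanes (-0.85 to -0.08) and the SDG lanes (-0.93 to 0.36). The pair was chosen after its values had been seen, and no test was made. Counts were low, at 13 to 84 for miR-500 in flaxseed against 97 to 162 in oil lanes, and at 31 to 71 for miR-501-3p in flaxseed against 28 to 71 in oil lanes. miR-500 exceeded background in 3 of 6 flaxseed and 5 of 5 oil lanes, and miR-501-3p in 5 of 6 flaxseed and 3 of 5 oil lanes. In oil 1 and 6 miR-501-3p had 28 and 37 counts, below the thresholds of 38.8 and 39.6. Of the other 5 tested probes of the cluster, miR-532-5p stood at 0.38 ± 0.17, and miR-188-3p, miR-362-3p, miR-362-5p and miR-532-3p lay between -0.19 and 0.08. With 4 bases between them the 2 probes may read part of each other's signal, which was not tested.

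The miR-17/92 miRNAs and their paralogs lay mostly on the lower side of flaxseed. Of 9 tested probes 8 lay below 0, with a median of -0.49, and 4 had an unadjusted p under 0.05, all lower, beside the 8.3% of all tested miRNAs that were lower at this limit. Without flaxseed 3 all 9 lay below 0, with a median of -0.38 and 3 such probes. miR-92a had the smallest p of the comparison. It stood at 5.35, 6.04 and 6.35 log2 CPM in flaxseed and at 8.21, 6.07, 8.63, 8.23 and 6.16 in oil lanes. Oil 1, 3 and 4 lay above every flaxseed lane and oil 2 and 6 among them. The fold change was -1.85 ± 0.45 (unadjusted p = 0.000482, adjusted p = 0.064), but miR-92a exceeded background in only 1 of 6 flaxseed and 4 of 5 oil lanes.

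miR-106b, of the Mcm7 cluster, separated the groups. It stood at 10.59, 10.86 and 11.05 in flaxseed and at 11.36, 11.35, 11.84, 11.77 and 11.13 in oil lanes. It had a fold change of -0.66 ± 0.23 (unadjusted p = 0.00897), and -0.68 without flaxseed 3. Its cluster partners differed with all lanes: miR-93 stood at -0.32 ± 0.23 and miR-25 at 0.49 ± 0.32, the 1 probe of the list above 0. By seed, the AAAGUGC miRNAs stood at -0.66 for miR-106b, -0.49 for the joint miR-106a and miR-17 probe, -0.32 for miR-93 and -0.14 for the joint miR-20a and miR-20b probe. The GUGCAAA pair stood at -0.76 ± 0.28 for miR-19b and -0.57 ± 0.29 for miR-19a. In the AUUGCAC pair miR-92a and miR-25 had opposite signs with all lanes, but both lay below 0 without flaxseed 3.

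The 6 miRNAs of the miR-15/16 seed family, known for slowing the cell cycle, had a median of -0.50 with 5 below 0, beside 42.7% of all tested miRNAs. Of the family miR-15a (-0.04) and miR-322 (0.01) lay near 0. At an unadjusted p under 0.05, 2 were lower, beside 8.3% of all tested miRNAs. Without flaxseed 3, whose mean over the 6 probes was far below the other lanes (-2.01), the median was -0.29 with 1 such probe. Among them miR-15b stood at -0.95 ± 0.40 and miR-497 at -0.50 ± 0.22, both with the seed AGCAGCA. miR-15b again stood highest in oil 1, 3 and 4, at 12.25, 13.05 and 12.92, against 11.06 and 11.15 in oil 2 and 6 and 11.21 to 11.76 in flaxseed lanes.

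**Figure D3:**
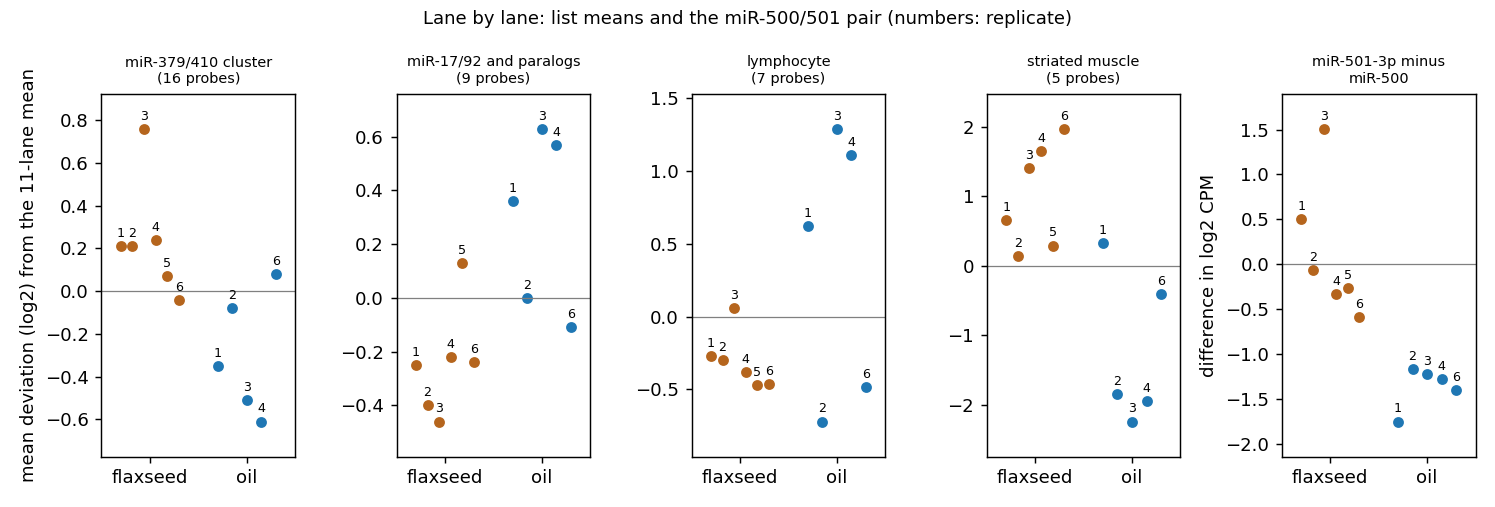
Each point is 1 lane (number: replicate) of the flaxseed or oil diet; the first 4 panels give the mean deviation, in log2, of a list's probes from their 11-lane mean, and the last gives miR-501-3p minus miR-500 in log2 CPM. Oil 1, 3 and 4 are low in the first panel, the distal Dlk1-Dio3 cluster, and high in the miR-17/92 and lymphocyte panels, while the last panel shows no overlap, from -0.59 to 1.51 against -1.75 to -1.17.

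The lymphocyte miRNAs divided the oil lanes. miR-150, a miRNA of mature B and T cells, stood at 11.37, 11.55 and 12.25 log2 CPM in flaxseed and at 14.03, 11.37, 15.01, 14.89 and 11.33 in oil lanes. Oil 1, 3 and 4 lay above all flaxseed lanes, whereas oil 2 and 6 lay at or below the lowest. The fold change was -2.41 ± 0.73 (unadjusted p = 0.00317, adjusted p = 0.0806), and -2.60 without flaxseed 3. miR-342-3p and miR-142-3p likewise stood highest in oil 1, 3 and 4, with fold changes of -1.62 ± 0.54 and -1.99 ± 0.82, or -1.44 and -2.80 without flaxseed 3. The arm from the other side of the miR-142 hairpin did not: miR-142-5p stood at 0.54 ± 0.32, and miR-142-3p exceeded it by 6.96, 7.99 and 8.05 in oil 1, 3 and 4 but by 4.76 and 4.10 in oil 2 and 6.

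Over the 7 tested lymphocyte probes 5 lay below 0, with a median of -0.59, or -1.05 without flaxseed 3. Their summed level ranged from 12877 to 47713 CPM in flaxseed, 11160 to 120882 in oil, 11187 to 13963 in basal and 12620 to 116350 in SDG lanes, so that high levels also occurred outside the oil diet. In SDG 1 and 2 miR-150 stood at 14.46 and 15.26. No tested probe of the list was at 0 in any lane. The myeloid list had 3 tested probes with a median of -0.14: miR-223 stood at 0.66 ± 0.17, miR-146a at -0.61 ± 0.44 and miR-146b at -0.14 ± 0.34. Without flaxseed 3 the median was 0.07, with 2 of 3 above 0, and miR-146a stood at -1.06 (edgeR unadjusted p = 0.0177).

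The oil lanes high in lymphocyte miRNAs, oil 1, 3 and 4, also differed from oil 2 and 6 in other miRNAs. Of the 59 miRNAs at an unadjusted p under 0.05, oil 1, 3 and 4 lay outside the flaxseed range for 46, 50 and 43, and oil 2 and 6 for 30 and 19. For the same miRNAs flaxseed 1 to 6 lay outside the oil range for 49, 43, 50, 41, 36 and 28. The 59 were chosen by the same comparison, so these counts are descriptions, and the share over all tested miRNAs was not counted. Some leading miRNAs did not follow these lanes: miR-500 stood at 7.52 to 7.82 in all oil lanes, and among oil lanes miR-34a was lowest in oil 4. The same 3 oil lanes had the lowest Dlk1-Dio3 and the highest miR-17/92 means. The part of lymphocyte content in these results was not tested.

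**Figure D4:**
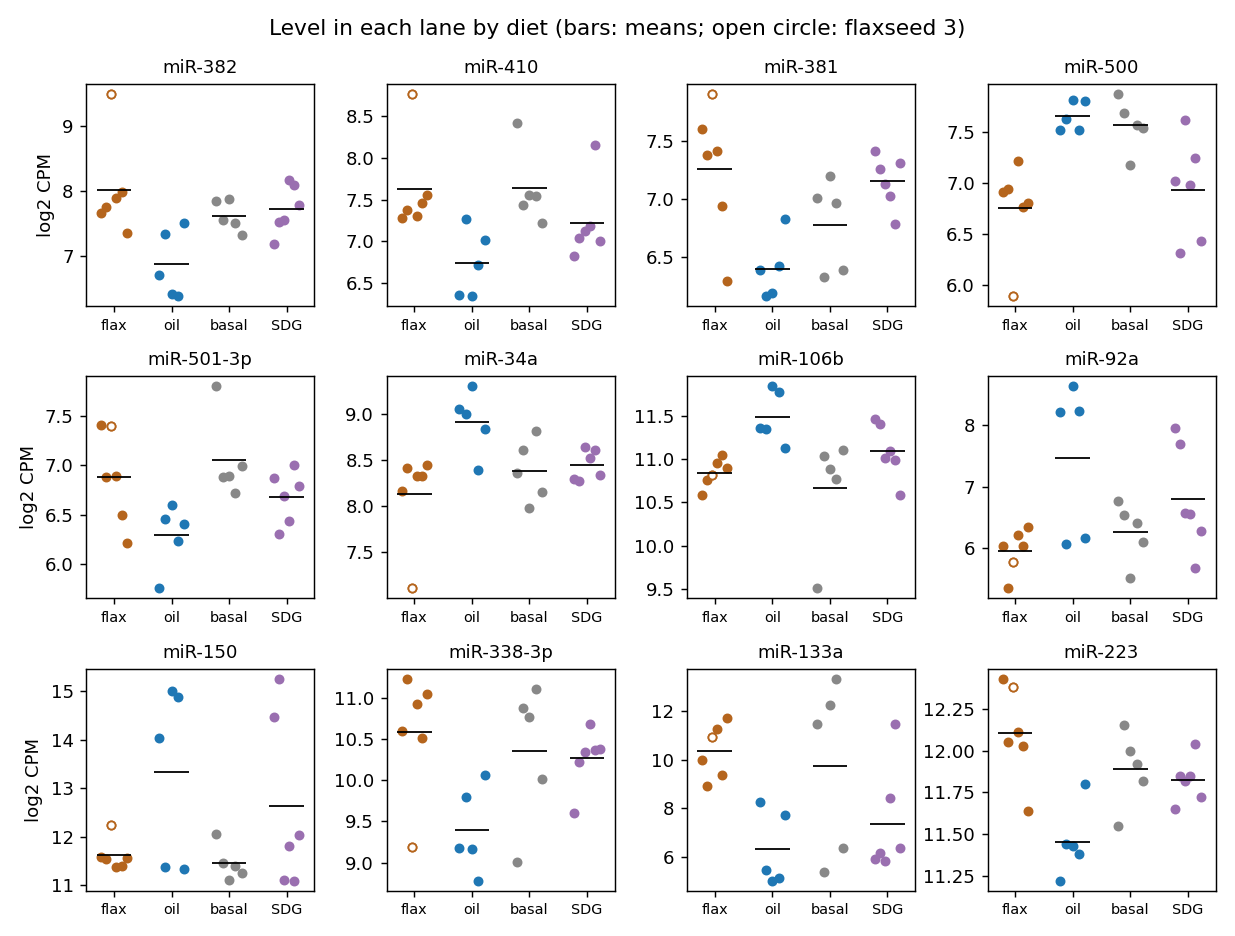
Log2 CPM (y axis) of 12 miRNAs in every lane of the 4 diets (x axis; flax is 10% flaxseed, and bars are means); the open circle is flaxseed 3. For miR-150 and miR-92a, 3 oil lanes lie above all flaxseed lanes and the other 2 do not, whereas for miR-500 and miR-106b all oil lanes lie above all flaxseed lanes.

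The striated muscle miRNAs miR-1 and miR-133a, which act in muscle differentiation, had the largest fold changes among the named miRNAs. In flaxseed lanes miR-1 stood at 12.49, 13.69 and 15.75 log2 CPM, against 11.67, 8.73, 7.99, 7.86 and 10.94 in oil lanes. miR-133a stood at 8.93, 10.48 and 11.72 in flaxseed and at 8.28, 5.47, 5.01, 5.14 and 7.72 in oil lanes. Neither overlapped between the groups, but mice of a group differed widely, with SDs of 1.33 and 1.76 (flaxseed and oil) for miR-1 and 1.11 and 1.55 for miR-133a. The fold changes were 4.28 ± 1.64 (unadjusted p = 0.0163) and 3.75 ± 1.32 (unadjusted p = 0.00945). miR-133a did not exceed background in oil 2, 3 and 4, so the size of its difference is uncertain.

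Of the other muscle probes miR-133b stood at 1.50 ± 0.73, miR-206 at 1.42 ± 0.83 and miR-499 at -0.25 ± 0.22, and the median of the 5 was 1.50. Their summed level was 6475 to 58883 CPM in flaxseed and 403 to 4048 in oil lanes. It was 471 to 190019 CPM in basal lanes, which spanned both groups. No tested muscle probe was at 0 in any lane. The part of muscle tissue in the sample was not tested.

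Among single miRNAs, miR-338-3p, encoded within the kinase gene Aatk, was 1 of the 2 that passed without flaxseed 3. It stood at 9.19, 10.76 and 11.23 log2 CPM in flaxseed and at 9.18, 9.80, 9.17, 8.78 and 10.06 in oil lanes. Flaxseed 3 was the lowest flaxseed lane and the other 5, at 10.51 to 11.23, lay above every oil lane. This gave a fold change of 1.24 ± 0.35 (unadjusted p = 0.00211, adjusted p = 0.0671), and 1.38 without flaxseed 3 (unadjusted p = 0.000209, adjusted p = 0.0499).

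The other was miR-204, which stood at 6.69, 9.12 and 9.60 in flaxseed and at 8.19, 8.57, 7.67, 8.25 and 8.76 in oil lanes. Again flaxseed 3 was the lowest lane of all and the other flaxseed lanes, at 8.95 or more, lay above every oil lane. Its fold change was 0.76 ± 0.34 with flaxseed 3 (edgeR unadjusted p = 0.0344, adjusted p = 0.178). Without that lane it was 0.94 (edgeR unadjusted p = 0.000393, adjusted p = 0.0499). The basal lanes, at 8.86 to 9.97, also lay above every oil lane.

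The p53 target miR-34a, which slows the cell cycle, stood at 7.11, 8.33 and 8.45 in flaxseed lanes, at 8.84 to 9.30 in oil 1, 2, 3 and 6, and at 8.39 in oil 4. Only oil 4 lay within the flaxseed range. The fold change was -0.75 ± 0.21 (unadjusted p = 0.00184), and -0.63 without flaxseed 3. miR-30b, of a family of 5 tested probes, stood at 8.32, 9.75 and 10.45 in flaxseed and at 10.70, 10.69, 10.84, 10.59 and 10.22 in oil lanes, with a fold change of -0.86 ± 0.25. Flaxseed 6 alone reached the oil range. The other miR-30 members had no common sign: miR-30a stood at 0.62 ± 0.31, miR-30e at 0.48 ± 0.44, miR-30c at 0.23 ± 0.18 and miR-30d at -0.09 ± 0.20. In the fit that also left out basal 1 and SDG 5, miR-30e was -0.54 (edgeR adjusted p = 0.0425), and without flaxseed 3 the family's median went from 0.23 to 0.04.

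Myeloid miR-223 had the smallest SE of the leading miRNAs after miR-1839-5p. It stood at 11.64, 12.08 and 12.43 in flaxseed and at 11.22, 11.44, 11.43, 11.38 and 11.80 in oil lanes, and flaxseed 6 lay below oil 6. Its fold change was 0.66 ± 0.17 (unadjusted p = 0.000883), and 0.57 without flaxseed 3. miR-126-3p, abundant in endothelium, stood at 15.41 to 16.06 in flaxseed and 14.98 to 15.32 in oil lanes, without overlap, at 0.48 ± 0.21 (edgeR unadjusted p = 0.0323). The fold change of miR-126-3p was 0.36 without flaxseed 3 (edgeR unadjusted p = 0.0805). Its other arm miR-126-5p stood at 0.22 ± 0.26. miR-24 stood at 8.13 to 10.85 in flaxseed and 11.05 to 11.43 in oil lanes, also without overlap, at -0.65 ± 0.31, while miR-27b, often processed with it, stood at 1.33 ± 0.49.

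Several differences rested on flaxseed 3. miR-27b was at 10.70 log2 CPM there and at 7.27 to 7.76 in the other flaxseed lanes, and its fold change without the lane was 0.14. miR-2141 was at 12.56 there and at 6.12 to 9.20 in the others, and went from 2.97 ± 0.98 to 0.56. miR-1224, at 12.28 against 7.71 to 8.82, went from 1.91 ± 0.67 to 0.05. miR-720 itself went from 3.11 ± 1.42 to -0.07. The tumour suppressor let-7b went from 0.76 ± 0.33 to 0.17, and miR-378, encoded in the metabolic regulator Ppargc1b, from 1.03 ± 0.34 to 0.44.

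The lists closest to the question of seed against oil held some miRNAs at an unadjusted p under 0.05 in edgeR. These were 1 higher and 1 lower of 6 estrogen receptor linked, 2 higher of 9 lipid metabolism and 1 higher of 6 adipocyte miRNAs. Of all tested miRNAs 15.0% were higher and 8.3% lower at this limit. Without flaxseed 3 the estrogen receptor list had 0 higher and 1 lower, and the other counts were the same, but some members changed. Without that lane miR-27b stood at 0.14 (edgeR unadjusted p = 0.385) and miR-221 had an edgeR unadjusted p of 0.0887, so that other miRNAs took their places. Of 6 miRNAs linked to the estrogen receptor 4 lay below 0, with a median of -0.20. Of these miR-22, which targets the receptor, stood at 0.78 ± 0.28 (0.39 without flaxseed 3) and miR-221, which also targets it, at -0.53 ± 0.25 (-0.43 without flaxseed 3). The largest fold change of the list was that of miR-206, at 1.42 ± 0.83. Of 9 lipid metabolism miRNAs 6 lay above 0 with a median of 0.45, or 0.19 without flaxseed 3. With all lanes the list was led by miR-378 and miR-27b, and miR-33, which targets a cholesterol transporter, stood at -0.29 ± 0.33. Of 6 adipocyte miRNAs 5 lay below 0 with a median of -0.18, but 3 lay below and 3 above 0 without flaxseed 3, with a median of -0.06.

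All 7 luminal epithelial miRNAs lay below 0, with a median of -0.28, but 0 had an unadjusted p under 0.05 in edgeR, and their summed level overlapped, at 2240 to 20500 CPM in flaxseed and 6184 to 18761 in oil lanes. The basal epithelial list of 3 had a median of -0.45, with miR-205 at -0.45 ± 0.54. Without flaxseed 3 all 3 lay below 0, with a median of -0.27, as miR-203 went from 0.47 to -0.05. Of 9 let-7 probes 6 lay above 0 with a median of 0.06, and the oncogenic miR-21 stood at 0.11 ± 0.29.

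**Figure D5:**
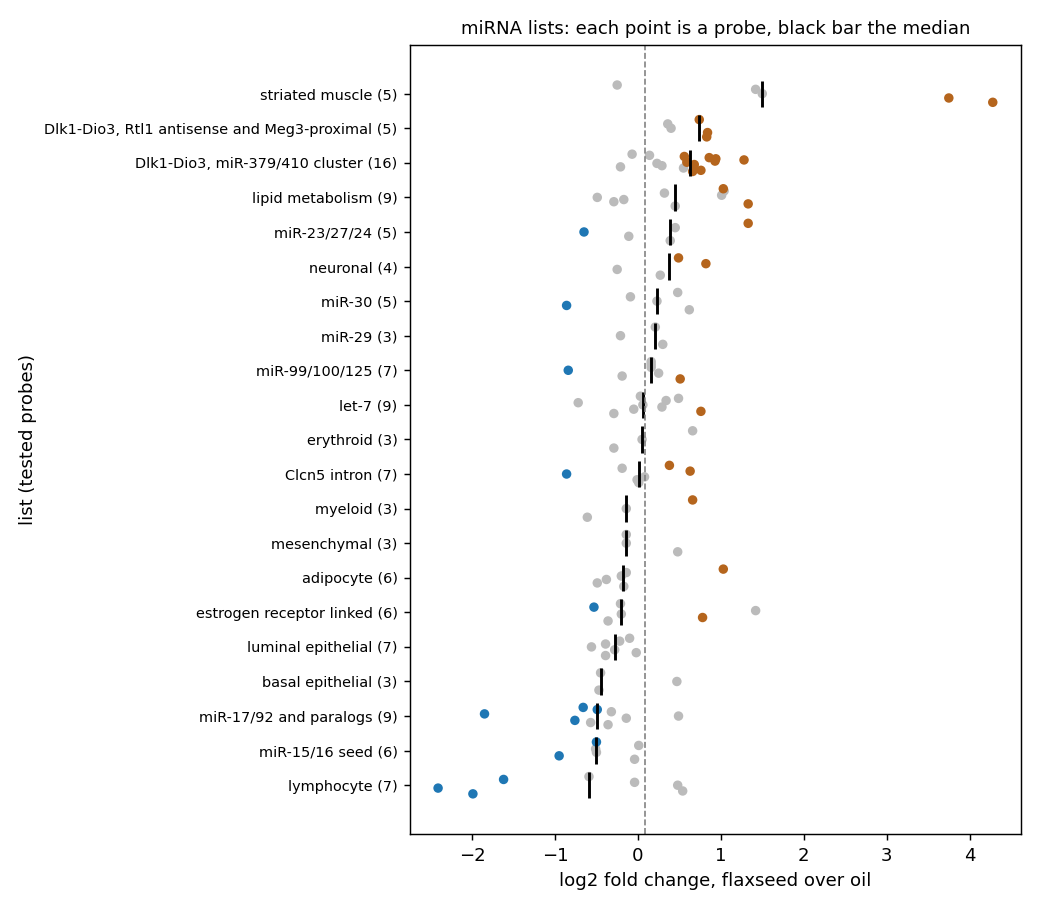
Log2 fold change (x axis, flaxseed over oil) of each tested probe of 21 miRNA lists (y axis, number of tested probes in parentheses); orange and blue points have an unadjusted p under 0.05, higher or lower in flaxseed, the black bar is the list's median and the dashed line is the median of all tested miRNAs, 0.08. The Dlk1-Dio3 lists lie mostly right of the dashed line and the miR-17/92 list mostly left, while lists such as let-7 centre on it.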

How the data were processed

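Per the labels, total RNA was hybridised to a NanoString mouse miRNA panel, and the lane files deposited by the authors hold unscaled counts; software and versions are not given in the sources used here. A deposited table of log2 values for 238 miRNAs, whose values followed background-subtracted counts shifted by a constant per lane, served as an alternative (the authors' rule is not stated); its SDG columns resembled other SDG lanes more than their own and enter only through the spread.

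Probes whose count exceeded their lane's negative controls (mean and 2 SD) in at least 5 of 22 lanes were tested (254, 1 of them viral) in edgeR 4.0.16 (R 4.3.3), with TMM scaling and diet as factor over all 22 lanes. Adjustment was by Benjamini-Hochberg over all tested probes at 0.05. Each SE was taken from the fold change and its F statistic. Levels are log2 CPM with 1 count added. The fit was checked on simulated counts.

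Named were the 24 mouse miRNAs with the smallest p, the 2 leading members of each list with at least 3 tested probes, and 10 fixed miRNAs, 57 in all. Others were chosen after their values were seen. Members and lists were chosen with earlier results of these data known. Alternatives were 5 other scalings, DESeq2 1.42.0, limma-voom (limma 3.58.1), the deposited log2 table, only the 11 lanes, other filters, control subtraction, mouse probes only, a replicate block, fits without the 3 lanes led by miR-720 and without each lane. Housekeeping scaling without flaxseed 3 was added after seeing the data. Probe intervals cover the spread between mice, and no intervals for counting error are given.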

Additional observations from a re-analysis of the deposited data

Results flagged for a closer look

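For each of the 76 miRNAs followed through all alternatives and each of the 2 diets, the lane farthest from the others was set against the range of its group by Dixon's criterion at 95%. In 152 such groups 37 lanes stood apart, where chance gives about 1 in 20 groups. Of the 37, 34 concern flaxseed 3, whose values are given in log2 CPM.

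In flaxseed 3 the level was far above the other flaxseed lanes for miR-382 (9.49), miR-150 (12.25), miR-137 (9.43), miR-410 (8.77), miR-378 (14.19), miR-196a (11.57), miR-1224 (12.28) and miR-872 (8.86). The same held for miR-136 (12.32), let-7b (17.48), let-7i (15.11), miR-15b (11.76), miR-30a (14.78), miR-29a (15.18), miR-27b (10.70), miR-22 (16.34), miR-720 (20.45), miR-142-3p (14.75), miR-674 (9.03), miR-301b (10.83) and miR-127 (11.12).

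It was far below them for miR-500 (5.89), miR-34a (7.11), miR-338-3p (9.19), miR-342-3p (7.85), miR-31 (5.89), miR-107 (3.93), miR-199a-5p (11.87), miR-24 (8.13), miR-99a (11.94), miR-296-5p (3.44), miR-324-5p (5.53), miR-204 (6.69) and miR-484 (5.53). Among the lymphocyte miRNAs, miR-142-3p and miR-150 were thus high and miR-342-3p low in this lane.

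The 3 other cases were miR-324-5p in oil 4, at 7.68 against 7.96 to 8.06 in the other oil lanes, let-7i in oil 4, at 13.52 against 13.41 to 13.43 in the other oil lanes, and miR-200a in flaxseed 2, at 8.03 against 10.00 to 11.12 in the other flaxseed lanes.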

How the results depend on the processing

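The count of called probes was 0 with DESeq2 size factors, total count, the 100 most abundant probes, housekeeping scaling, limma-voom, the deposited log2 table, the 11 lanes alone, no filter, control subtraction, mouse probes only, and housekeeping scaling without flaxseed 3. It was 5 with positive control scaling, 30 with DESeq2, 6 with probes above background in at least 11 of 22 lanes and 18 when the 3 lanes with over 40% miR-720 were dropped. Leaving out 1 lane gave 0 to 7 calls: 2 without flaxseed 3, 7 without flaxseed 6, 1 without oil 2, 7 without oil 6 and 0 without any other. The cause was not tested. The count at an unadjusted p under 0.05, 60 of 254 probes, ranged from 21 to 110 over the alternatives.

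With the replicate number as a block 0 probes were called and 52 reached an unadjusted p under 0.05, with 0.169 as the smallest adjusted p. Same-numbered flaxseed and oil lanes had deviations correlated at -0.208, -0.005, 0.194, -0.273 and 0.142 for numbers 1, 2, 3, 4 and 6, so that the numbers were not taken as pairs.

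Scaling moved the median of all probes to 1.15 (housekeeping), -0.27 (positive controls) and -0.16 (total count). The median of the miR-379 to miR-410 list was 1.61, 0.30 and 0.37 there, or 0.46, 0.57 and 0.54 relative to all, and the miR-17/92 median 0.32, -0.67 and -0.63, or -0.83, -0.40 and -0.47 relative to all.

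Of the 76 miRNAs followed through all alternatives, signs turned for the following. Other probes, such as miR-25 and miR-30e, were not followed in this way. Under housekeeping scaling the values were miR-106b 0.44, miR-15b 0.44, miR-497 0.22, miR-146a 1.34, miR-144 0.46, miR-200a 0.54, miR-200b 0.58, miR-199a-5p 0.24, miR-221 0.05, miR-142-3p 0.29, miR-200c 1.14, miR-205 0.23, miR-423-3p 0.51, miR-297c 0.56 and miR-106a+miR-17 0.21. With that scaling but without flaxseed 3 they were miR-203 -0.05, miR-29a -0.04, miR-720 -0.04 and miR-21 -0.20. Under positive control scaling miR-203 was -0.07, miR-29a -0.20, miR-29c -0.12 and miR-21 -0.28, and with the total count miR-203 -0.05, miR-29a -0.11 and miR-21 -0.25. In the deposited log2 table miR-21 was -0.03, and with no filter miR-29c was -0.01 and miR-21 -0.11. Leaving out 1 lane gave ranges of -0.05 to 0.63 for miR-203, -0.27 to 0.03 for miR-199a-5p, -0.03 to 0.37 for miR-29a, -0.07 to 3.35 for miR-720 and -0.15 to 0.21 for miR-21, each turned without flaxseed 3, and of -0.51 to 0.00 for miR-200c, turned without oil 2. Without the 3 lanes led by miR-720 miR-203 was -0.08, miR-29a -0.07, miR-720 -0.11 and miR-21 -0.18. In the main edgeR fit with all lanes none of these miRNAs passed the adjusted threshold.

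Background limits the low probes: in flaxseed lanes the negative controls averaged 8.2 to 28.2 counts and in oil lanes 18.1 to 19.8, and the mean count of miR-92a in flaxseed lanes was 29.0.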

Other observations

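Other miRNA groups held values that no comparison above used. Of 7 probes of the miR-99, miR-100 and miR-125 families, 5 lay above 0 with a median of 0.16 (6 with a median of 0.33 without flaxseed 3): miR-99a stood at 0.51 ± 0.21 and the 2 arms of miR-125a on either side of 0, miR-125a-5p at 0.16 ± 0.34 and miR-125a-3p at -0.84 ± 0.26. miR-125a-3p stood at 7.51, 8.19 and 8.57 log2 CPM in flaxseed and at 8.84, 9.02, 9.37, 9.34 and 8.28 in oil lanes, and oil 6 alone lay within the flaxseed range. Of 4 neuronal miRNAs 3 lay above 0, led by miR-137 at 0.82 ± 0.27, which was 0.44 without flaxseed 3. The erythroid list, a measure of blood in the gland, had a median of 0.05, with miR-451 at 0.05 ± 0.31. The smooth muscle miRNAs miR-143 and miR-145 stood at -0.05 ± 0.39 and -0.04 ± 0.35, with a median of 0.16 without flaxseed 3.

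miR-1839-5p and miR-872 separated the groups. miR-1839-5p stood at 8.76, 8.98 and 9.47 in flaxseed and at 8.67, 8.53, 8.39, 8.61 and 8.60 in oil lanes, with a fold change of 0.50 ± 0.16 and 0.38 without flaxseed 3. miR-872 stood at 7.63, 7.75 and 8.86 in flaxseed and at 7.26, 7.41, 7.07, 7.45 and 7.39 in oil lanes, with 0.68 ± 0.24 and 0.40.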
